A study of Homo sapiens with 2 samples.

Results

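CD26-transfected MSTO-211H cells were compared with control MSTO-211H cells on 1 array of 2 colours, and 9359 named genes had a value there, of 10750 with a value on either array of the study. The genes were taken from the array column of the transfected cells, with probes of a gene averaged and with no choice by value. MSTO-211H is an established human mesothelioma cell line, a tumour line of mesothelial origin. The test cells had been transfected with CD26 carried in pLNCX2, a vector of retroviral backbone, and no source used here gives whether they were a pool or 1 clone, or what the control cells received. The other array of the study compared CD26-depleted ACC-MESO1 cells, another mesothelioma line, with their control. The labels name an shRNA for that depletion and the design text an siRNA. On both arrays the control cells carried Cy5 and the manipulated cells Cy3, with no dye swap, so a dye effect of a gene would have the same sign on both arrays. Each value is the log2 of manipulated cells over their control (n = 1 array each), so a value of 1 is a 2-fold difference, and there is no replicate, no error between samples and no p-value. The ratios carry no level in either cell, so presence or absence of a marker could not be checked.

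CD26, encoded by DPP4, is a surface glycoprotein whose outer domain removes dipeptides from the amino end of chemokines, incretins and neuropeptides that have proline or alanine in the next-to-end position. It also binds adenosine deaminase, matrix proteins and caveolin-1, and it signals in T cells as a costimulator. In mesothelioma it is known as a surface antigen that antibodies have been raised against. The study asked which genes differ when CD26 is lowered or raised in such cells.

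DPP4 had a log2 ratio of 5.51, or 45.7-fold, in the transfected cells and -3.92 in the depleted ACC-MESO1 cells, each on a single probe. Both values had the direction of their labels. Its nearest measured neighbours on chromosome 2 gave smaller values. Going away from DPP4 on one side, TBR1 was at 0.28, PSMD14 at -0.06, TANK at 0.46 and RBMS1 at 0.27. On the other side FAP was at -1.76, IFIH1 at 0.48, GCA at 0.77 and GRB14 at 1.05. FAP, fibroblast activation protein, is the closest relative of DPP4 and the next measured gene on its side, and it was 3.38-fold lower. GRB14, an adaptor that binds the insulin receptor, was the other member of these 8 past 2-fold.

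Partners and substrates of CD26 spread to both sides. Of 4 measured binding partners, the membrane scaffold gene CAV1 was at -0.82, IGF2R, the mannose 6-phosphate receptor, at -0.64, the integrin gene ITGB1 at 0.13 and ADA, adenosine deaminase, at 0.28. Among 10 measured genes of peptides that CD26 can cleave, 5 were above 0. Their median was -0.05, with an interval over genes from -0.59 to 1.28. At least 2-fold higher were 3 (30%, against 4.09% of all genes). These were the chemokine gene CCL5 (1.85), the incretin gene GIP (1.28) and the tachykinin gene TAC1 (1.12). CCL5 was also high in the depleted cells, at 3.27. Of 6 measured receptors for such peptides, the neuropeptide Y receptor gene NPY5R was at 1.05 and NPY2R at -0.90. Among 20 measured prolyl and related peptidases the median was 0.08, and the endothelin-converting enzyme gene ECE1 (2.56) was the member past 2-fold beside DPP4 and FAP.

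Over all 9359 genes, 383 were at least 2-fold higher (4.09%), and the lower side had 128 past 2-fold (1.37%). The median was 0.01, the quartiles were -0.24 and 0.28, and 77.5% of genes lay within 0.5 of 0. The upper side reached further, with 141 genes at 1.5 or more and 22 at -1.5 or less. The shares depended on whether a gene could also be measured on the depletion array. Of 8956 genes with a value on both arrays, the share past 2-fold on the higher side was 2.99%, against 28.5% of the 403 with a value on the transfection array alone. The lower side was 1.28% against 3.23%. Counts past 2-fold in the lists and families below are to be read against the 4.09% and 1.37% of all genes. Centring on the 39 cytosolic ribosomal protein genes instead moved every value up by 0.22. Group medians are therefore to be read against the 0.01 of all genes, and those between -0.22 and 0 change sign under that centring.

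**Figure D1:**
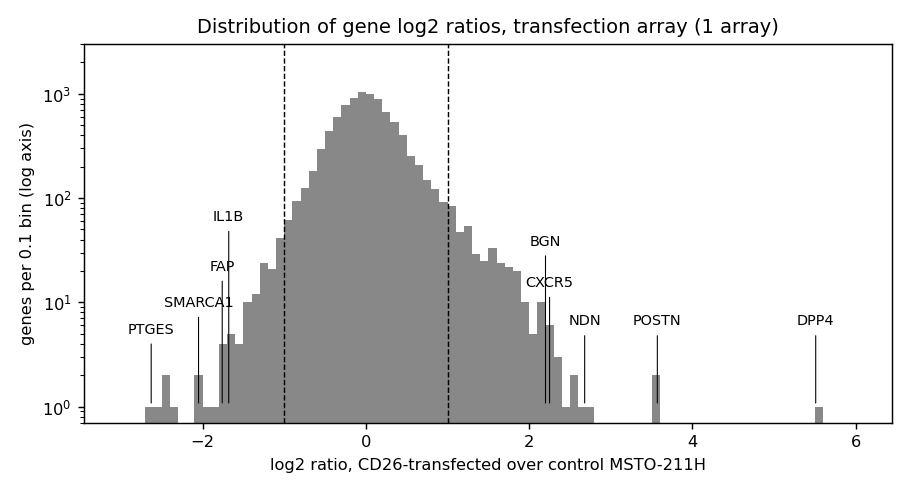
Histogram of the log2 ratios of 9359 genes on the transfection array, in bins of 0.1 on the x axis with the number of genes on a log y axis; dashed lines mark 2-fold. The upper tail holds 383 genes past 2-fold and the lower tail 128, with DPP4 at 5.51 and PTGES at -2.63 as the ends.

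Different probes of a gene shared the array, RNA and dyes, so their spread is no error between samples. For 471 genes with several probes the pooled SD between probes was 0.45. The mean was past 2-fold for 8 of them, and ZNF407, a zinc finger gene, was the one with every probe past 2-fold (1.14 and 1.60). With a limit of 0.5, every probe lay past it on one side for 21 genes, 13 higher and 8 lower. The highest of the 21 by mean were CABLES1, a CDK5-binding protein gene (1.46, probes at 0.69 and 2.23), and ZNF407 (1.37). The lowest were the ribosomal protein gene RPL9 (-0.77) and STARD13 (-0.73). CXCL8, the neutrophil chemokine, had 3 probes from 0.50 to 1.64, and USP18, which removes ISG15 from proteins, was at 0.61 and 0.63.

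The 30 highest named genes ran from DPP4 to 2.03 and the 30 lowest to -1.41, each on a single probe. Of the 30 highest, 12 had no value on the depletion array, against 3 of the 30 lowest. Near the top stood the anoctamin gene ANO2 (3.56) and the V-ATPase subunit gene ATP6V1G3 (2.72). Among the highest after the first 12 were the B cell inhibitory receptor CD72 (2.26), the chemokine receptor CXCR5 (2.25), the decoy receptor IL13RA2 (2.25) and HLA-DOB, a subunit of a class II chaperone (2.18). These 4 lacked a value on the depletion array. X-linked genes included BEX1 (2.21), BGN, the proteoglycan biglycan (2.20), and the histone variant gene H2AP (2.25). Further members were IQGAP2, a scaffold protein (2.19), the mitochondrial threonyl-tRNA synthetase TARS2 (2.18), the vasopressin receptor AVPR1A (2.18), the ion channel TRPM3 (2.13), the protamine PRM2 (2.13), the ubiquitin ligase HECTD2 (2.11), the glucuronosyltransferase UGT2B7 (2.11) and TENM2, a synaptic adhesion protein (2.08). TENM2 was at 1.61 in the depleted cells and TARS2 at -1.24.

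Among the lowest after the first 12 stood the inflammatory cytokine gene IL1B (-1.68), the cardiac troponin gene TNNT2 (-1.63), the actin nucleator COBL (-1.62), the GTPase gene ARL11 (-1.60), the membrane-type metalloproteinase MMP24 (-1.56), the complement protease C1S (-1.56), SETBP1 (-1.55), PHTF2 (-1.53) and the porphyrin transporter ABCB6 (-1.49). IKBKB, the kinase that releases NF-kB, was at -1.44 and CLN6, whose product lies in the endoplasmic reticulum, at -1.45. MGP, an inhibitor of calcification, was at -1.48 and also low in the depleted cells, at -1.18. RPLP0, a ribosomal stalk protein often used as a reference gene, was at -1.46 and -1.36. The glycolytic enzyme GAPDH, another usual reference, was at -1.39 and -0.48.

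Of 25 measured matricellular genes 9 were above 0, with a median of -0.11. Past 2-fold were 4 higher (16%, against 4.09% of all genes) and 1 lower (4%, against 1.37%). The higher ones were POSTN, periostin (3.57), MMRN1, a platelet and endothelial multimerin (2.35), SPOCK1, a proteoglycan (1.89), and MATN2, a matrilin (1.08). TGFBI, a periostin relative, was the lower one at -1.05. Among 17 elastic fibre genes EFEMP1, fibulin-3, was at 2.45, and among 6 fibrillar collagen genes COL3A1 was at 1.78 while 5 lay above 0. Among 13 basement membrane genes NID2, nidogen-2, was at -2.02 and the laminin gene LAMA5 at -1.21. The gelatinase MMP2 was at 1.77 and the sheddases ADAM19 and ADAM10 at 1.57 and 1.19. In the depleted cells POSTN was at -0.23, EFEMP1 at 0.38, NID2 at -0.26 and MMP2 at 0.12.

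Of 27 measured tight junction genes 17 were above 0, with a median of 0.20 and an interval from -0.19 to 0.50. At least 2-fold higher were 4 (14.8%, against 4.09% of all genes). These were the plaque protein cingulin, CGN (2.10), the angiomotin genes AMOT (1.52) and AMOTL2 (1.02), and the claudin CLDN18 (1.13). CLDN11 was at -1.05, and the 12 claudins by symbol had a median of -0.02. Of 10 desmosomal genes 8 were above 0, with a median of 0.23 and an interval from -0.36 to 1.10, led by DSG1 (1.61) and the plakophilin PKP2 (1.10). DSG1 lies with DSG3, DSC3 and DSG2 in a stretch of mostly higher genes on chromosome 18, where DSG2 was at -0.36. In the depleted cells DSG1 was at 1.59. Among 24 adhesion molecules of the immunoglobulin type the median was -0.17, and the nectin-like PVR was at -1.10. ITGA7, a laminin receptor subunit, and ITGAD, a leukocyte subunit, were at -1.10 and -1.01. Of 15 measured factors and effectors of epithelial-mesenchymal transition 8 were above 0, with a median of 0.06 and an interval from -0.23 to 0.33. Past 2-fold were ZEB2, a repressor of E-cadherin (-1.16), and OVOL2, an epithelial factor that opposes it (1.28). Neither had a value on the depletion array. Keratin genes showed 1 member past 2-fold among 26, KRT18, at -1.16.

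**Figure D2:**
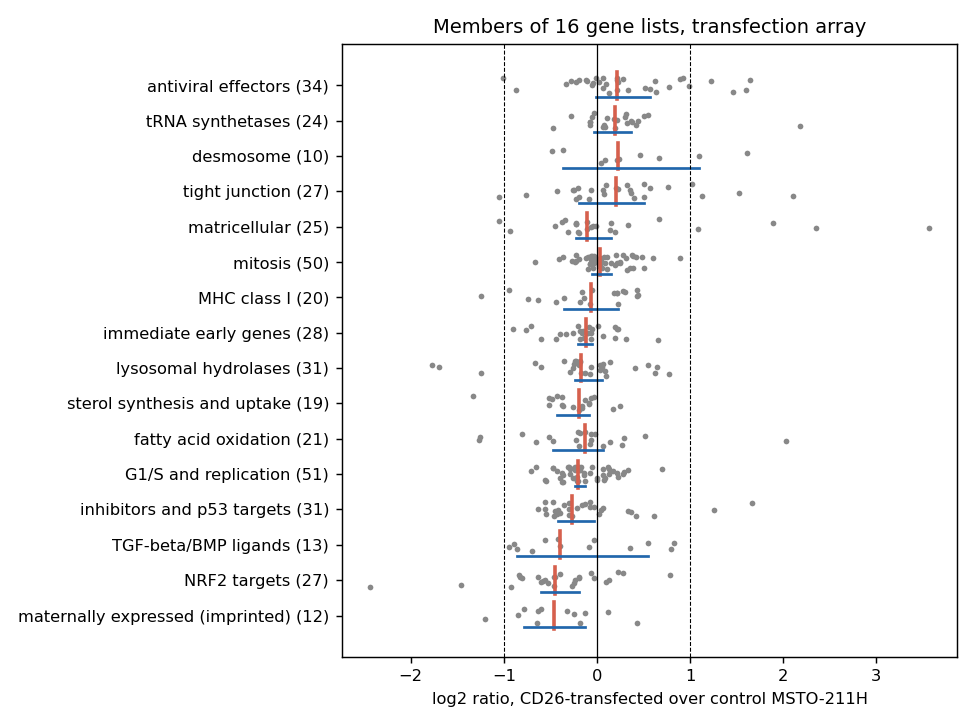
Members of 16 gene lists, with the log2 ratio of transfected over control MSTO-211H cells on the x axis and the number of measured genes after each list name. Grey points are genes, orange bars list medians, and blue lines the 95% order-statistic interval of the median, which covers the spread between genes only; antiviral effectors have a median of 0.22 and NRF2 targets of -0.45.

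Interferon-stimulated genes encode proteins that block viral replication, and many have the interferon-stimulated response element before their start. Of 34 measured antiviral effectors 23 were above 0, with a median of 0.22 and an interval from -0.01 to 0.57. Past 2-fold were 4 higher (11.8%, against 4.09% of all genes) and 1 lower (2.94%, against 1.37%). The sequences before the start sites of these 5 genes are shown because each holds that element. It was searched on both strands in the 250 bases before the start as 2 copies of GAAA set 2 bases apart, and matches, which can overlap, stand in capitals.
ISG15 (RefSeq GRCh38.p14, chr1:1013359-1013424, plus strand): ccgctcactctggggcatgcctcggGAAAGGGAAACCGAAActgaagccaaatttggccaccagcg
IFIT1 (RefSeq GRCh38.p14, chr10:89392482-89392554, plus strand): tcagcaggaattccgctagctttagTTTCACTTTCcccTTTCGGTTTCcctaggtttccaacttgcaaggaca
IFIT3 (RefSeq GRCh38.p14, chr10:89327816-89327909, plus strand): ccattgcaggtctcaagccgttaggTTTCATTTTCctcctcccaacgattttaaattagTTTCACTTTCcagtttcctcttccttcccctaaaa
IFI27 (RefSeq GRCh38.p14, chr14:94110603-94110675, plus strand): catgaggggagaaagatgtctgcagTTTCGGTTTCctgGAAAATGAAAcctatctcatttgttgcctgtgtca
PARP14 (RefSeq GRCh38.p14, chr3:122680785-122680838, plus strand): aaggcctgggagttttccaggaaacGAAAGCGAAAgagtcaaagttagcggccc
The element was in 17 of the 27 effectors with a RefSeq promoter entry (63%) and in 3.07% of 27305 promoters. The median log2 ratio was 0.23 over the 17 and 0.12 over the other entries.

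ISG15, a ubiquitin-like modifier, was at 1.64, IFIT1, which binds viral RNA, at 1.60 and its relative IFIT3 at 1.46. The mitochondrial protein gene IFI27 was at 1.22. PARP14, an ADP-ribosyltransferase that holds the same letters, was at -1.01. Genes named IFI or IFIT formed the family with the highest median among those with 10 or more measured members, at 0.63, and 14 of 15 were above 0. The 5 measured receptors had a median of -0.06 and the 10 kinases and transcription factors 0.06, from JAK2 at -0.74 to IRF9 at 0.28. The 7 sensors and adaptors had a median of 0.17 with 6 above 0, and the RNA sensor RIGI was the highest at 0.78. In depleted ACC-MESO1 cells the effectors had a median of 0.42, with IFI27 at 2.04 and ISG15 at 1.48, but IFIT1 at -0.55. The effector median was thus above 0 on both arrays, which held the opposite manipulation in the same dye orientation. The part of the dye in this was not tested.

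**Figure D3:**
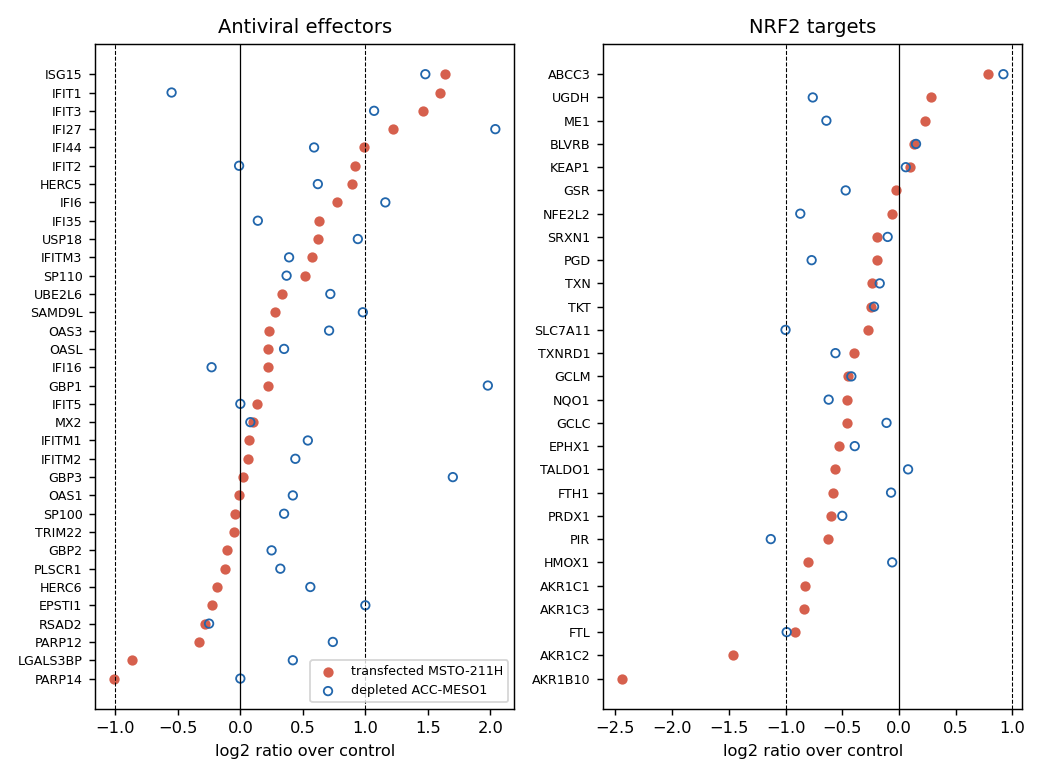
Log2 ratios of 34 antiviral effectors (left) and 27 NRF2 targets (right), 1 gene per line, in transfected MSTO-211H cells (filled orange) and depleted ACC-MESO1 cells (open blue); a missing open point is a gene with no value there, and dashed lines mark 2-fold. ISG15 lies at 1.64 and 1.48, and AKR1B10 lies at -2.44 with no depletion value.

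Antigen presentation genes of class I, which load peptides for T cells, lay around 0. Of 20 class I genes 9 were above 0 and the median was -0.06, with CD1D, which presents lipids, at -1.25. In the depleted cells the class I median was 0.75. Of 9 class II genes 5 were above 0, and HLA-DOB was the member past 2-fold. Among 14 chemokine genes CXCL1 (1.54) and CCL5 (1.85) were past 2-fold on the higher side, and they were at 2.46 and 3.27 in the depleted cells. Of 15 interleukin and growth cytokine genes 5 were above 0 and IL1B was lowest. Its receptor subunit IL1RAP was at -1.17.

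Metallothioneins, small cysteine-rich proteins that bind zinc and copper and are switched on by the metal sensor MTF1, were among the higher families. Of 7 measured members 6 were above 0 and 3 were at least 2-fold higher (42.9%, against 4.09% of all genes), with a median of 0.70. MT1L was at 1.40, MT1E at 1.05 and MT1B at 1.03, while MT3, a brain form, was at -0.21. In the depleted cells the median was 0.78. These genes are close paralogs in a cluster on chromosome 16, and the probes may not separate them. The 3 members with a RefSeq promoter entry all held the core of the metal response element, TGCACNC or TGCGCNC on either strand in the 250 bases before the start, as did 24.7% of all promoters. The stretch of MT1B is shown as the member with an entry that was past 2-fold.
MT1B (RefSeq GRCh38.p14, chr16:56651675-56651741, plus strand): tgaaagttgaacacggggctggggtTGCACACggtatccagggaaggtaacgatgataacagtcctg

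NRF2 is a transcription factor that raises genes for glutathione, thioredoxin, iron storage and NADPH supply. Of 27 measured targets 22 were below 0, with a median of -0.45 and an order-statistic interval from -0.60 to -0.19. Counted in this list are NFE2L2, which encodes NRF2 itself (-0.06), and its inhibitor KEAP1 (0.10). The aldo-keto reductases AKR1B10 (-2.44) and AKR1C2 (-1.46), which reduce carbonyls, retinoids and steroids, were at least 2-fold lower, and neither had a value on the depletion array. None of the targets was at least 2-fold higher. In the depleted cells the median was -0.42. Over the 23 targets with a value on both arrays the medians were -0.27 in the transfected and -0.42 in the depleted cells, with none past 2-fold in the transfected cells. The other 4 were aldo-keto reductases, close paralogs. The letters TGACNNNGC of the antioxidant response element, on either strand, were in 4 of 20 targets with a promoter entry (20%) and in 11% of all promoters. The median log2 ratio was -0.29 over the 4 and -0.46 over the other entries. The latter include the close paralogs AKR1C1 (-0.83), AKR1C2 (-1.46) and AKR1C3 (-0.84), and the difference was not tested.

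Retinoid and eicosanoid enzymes held large single values. The retinaldehyde reductase DHRS3 was at -2.42 and the retinol dehydrogenase RDH5 at -1.27. With AKR1B10, 3 of 16 retinoid enzymes and binding proteins were at least 2-fold lower (18.8%, against 1.37% of all genes). Of 12 retinoid receptors and responsive genes 3 were above 0, from RARB at -0.96 to RXRB at 0.84. PTGES, the inducible prostaglandin E2 synthase, was 6.18-fold lower (-2.63) and was the only one of 16 phospholipases and synthases past 2-fold. PTGES was at 0.12 in the depleted cells and DHRS3 at -0.42.

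Of 19 genes of sterol synthesis and uptake 2 were above 0, with a median of -0.19, and INSIG1, which holds the sterol sensor in the endoplasmic reticulum, was at -1.33. In the depleted cells the median was -0.53 and INSIG1 was at -2.40. Of 21 fatty acid oxidation genes 6 were above 0. CPT1A, which carries fatty acids into mitochondria, was at -1.26 and the thiolase ACAA2 at -1.27, while the peroxisomal oxidase ACOX2 was at 2.03. PLIN2, the coat protein of lipid droplets, was at -1.98, the hormone-sensitive lipase LIPE at -1.05 and the acyltransferase AGPAT2 at 1.16. Among 31 lysosomal genes the median was -0.17 and 3 were at least 2-fold lower (9.68%, against 1.37% of all genes). These were the galactosylceramidase GALC (-1.77), UNC93B1, which carries toll-like receptors (-1.70), and the iduronate sulfatase IDS (-1.25). The glycogen synthase GYS2 was at 2.53 while the 18 glycogen genes had a median of 0.02. The 20 hypoxia targets had no member past 2-fold and a median of -0.03.

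TGF-beta and BMP ligands had a median of -0.40 (interval -0.86 to 0.55) with 4 of 13 above 0, from BMP6 at -0.94 to BMP5 at 0.83. Of 15 receptors and SMADs 4 were above 0, with a median of -0.19 (interval -0.42 to 0.12), and TGFBR2 was lowest at -0.84. The 17 antagonists and targets had a median of -0.03 (interval -0.24 to 0.41), and FSTL3, an activin-binding antagonist, was at 1.84. Wnt ligands had a median of -0.07 over 17 genes, and Wnt receptors, antagonists and targets 0.02 over 30. Past 2-fold were the ligand WNT7B (1.14), its acyltransferase PORCN (1.27), the Dickkopf receptor KREMEN1 (1.69) and the feedback inhibitor NKD2 (1.10) on the higher side and the antagonist DKK3 (-1.19) on the lower. In the depleted cells WNT7B was at -1.71 and PORCN at 1.01. The patched receptor PTCH1 was at 1.04. In the IGF axis IGFBP7, a binding protein, was at 1.99 and the insulin receptor INSR at -1.29. GAS6, the ligand of AXL and MERTK, was at -1.37 and the kinase receptor RET at -1.21. IGFBP7 was at -1.01 in the depleted cells and GAS6 at 1.07. Of 28 immediate early and MAPK feedback genes 8 were above 0 and none was past 2-fold.

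Of 51 genes of G1/S and replication 15 were above 0, with a median of -0.20, an interval from -0.24 to -0.13 and none past 2-fold. CCNE1, cyclin E1, was lowest at -0.71 and MCM10 highest at 0.70. Of 50 mitotic genes 28 were above 0 and the median was 0.03. On the depletion array the medians were 0.11 for G1/S and replication and -0.14 for mitosis. Of 31 CDK inhibitors and p53 targets 9 were above 0, with a median of -0.27. GADD45G (1.66) and TP53I3 (1.26) were its members past 2-fold. Among 33 genes of apoptosis the survival gene BCL2L1 was at -1.01 and the BH3-only gene HRK at 1.13. Unfolded protein, ATF4 and heat shock genes had no member past 2-fold, with medians of 0.11, 0.01 and -0.04. Of 24 tRNA synthetase genes 17 were above 0, with a median of 0.19.

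Chromatin and developmental regulators gave single large values. SMARCA1, an ISWI remodeller, was at -2.05, and the neuronal remodeller CHD5 was at 1.78. The histone demethylases KDM6B and KDM4B were at 1.93 and 1.42. Of 31 HOX genes HOXA7 (-2.34) and HOXC13 (-1.30) were at least 2-fold lower and HOXC11 (1.58) at least 2-fold higher. Imprinted genes are transcribed from the allele of 1 parent. Of 12 maternally expressed genes 2 were above 0, with a median of -0.46 and an interval from -0.78 to -0.13, and the noncoding RNA H19 was at -1.20. The median was -0.32 over the 11 of them on both arrays. The 13 paternally expressed genes had a median of 0.02 with an interval from -0.29 to 0.95, which overlaps the other, from MKRN3 at -1.04 to NDN, necdin, at 2.68. On the depletion array the medians were 0.05 and -0.04.

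Across 124 gene families taken by symbol, 96 had 10 or more measured members, and 82 of these had a median within 0.15 of 0. Of 115 olfactory receptor genes 12 were at least 2-fold higher (10.4%, against 4.09% of all genes) and 1 lower, led by OR9I1 (1.66). Of these 12, 5 were among the 17 with no value on the depletion array and 7 among the remaining 98, where the shares over all genes were 28.5% and 2.99%. All 3 higher genes of the GABA and glutamate receptors, GABRD (1.70), GABRA4 (1.65) and GABRB2 (1.29), lacked a depletion value, as 7 of the 21 did, and sodium channel subunits had 0 of 9 past 2-fold. Calcium channel subunits had a median of 0.41 with 15 of 19 above 0, from CACNB3 (1.62) to CACNA1I (-0.46). Their median was 0.34 over the 18 genes on both arrays and 0.02 on the depletion array. Protocadherins had a median of 0.46 with 11 of 15 above 0, led by PCDHB12 (1.81) and PCDHB16 (1.02). The median was 0.33 over the 12 on both arrays and 0.04 in the depleted cells. Members of these families are close paralogs, and probe specificity was not tested. Solute carriers, with 203 measured genes, had 8 higher (3.94%, against 4.09% of all genes) and 2 lower (0.985%, against 1.37%). They ran from the glutamate transporter SLC1A1 (1.84) to SLC43A3 (-1.17).

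Genes also lay higher or lower by chromosome. Of the 9359 genes 9272 had a chromosome in the RefSeq annotation of GRCh38.p14. The autosome medians ran from -0.25 on chromosome 13 to 0.21 on chromosome 14, with an SD of 0.10 over 22 autosomes. On the depletion array they ran from -0.02 to 0.06, with an SD of 0.0183. A median of at least 0.1 in size occurred on 6 autosomes here and on 0 on the depletion array. On chromosome 14, 71.2% of 358 genes were above 0 and 31 were at least 2-fold higher (8.66%, against 4.09% of all genes). Over its 336 genes on both arrays the median was 0.18. On chromosome 13, 26.1% of 157 genes were above 0. Chromosome 7 had a median of -0.17 with 31.4% of 401 genes above 0. Past 2-fold it had 18 higher genes (4.49%, against 4.09% of all genes) and 11 lower (2.74%, against 1.37%). Chromosome 2 was at 0.13, chromosome 5 at 0.12 and chromosome 22 at -0.13. The lines differ between the arrays, and line, manipulation and control cannot be told apart in this difference.

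**Figure D4:**
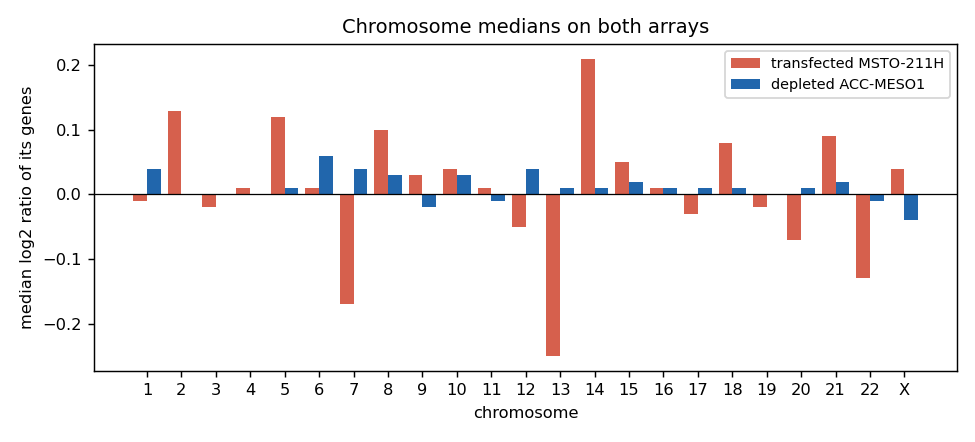
Median log2 ratio of the measured genes of each chromosome (x axis) in transfected MSTO-211H cells (orange) and depleted ACC-MESO1 cells (blue); bars start at 0 and have no error bar because each array was single. Chromosome 14 is at 0.21 and chromosome 13 at -0.25 on the transfection array, and the depletion medians of the autosomes lie between -0.02 and 0.06.

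The offsets differed in extent along the chromosomes. Cut into groups of 20 consecutive measured genes, chromosome 14 had a median above 0 in 17 of 17 groups, from 0.09 to 0.39, with its last 18 genes in no full group. Chromosome 7 was below 0 in 18 of 20 groups and chromosome 13 in 6 of 7. On chromosome 13 the group nearest the centromere, from TPTE2 to MTMR6, was at 0.09, and the 3 last groups were at -0.39, -0.38 and -0.37. On chromosome 6 the first 3 groups, from DUSP22 on the short arm to SOX4, were at -0.38, -0.41 and -0.36, and the fourth was at -0.17. The other groups of that chromosome lay between -0.19 and 0.22. On chromosome 18 the group from RBBP8 to MEP1B was at 0.54 and the next at 0.23, while the other 5 lay between -0.05 and 0.11.

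**Figure D5:**
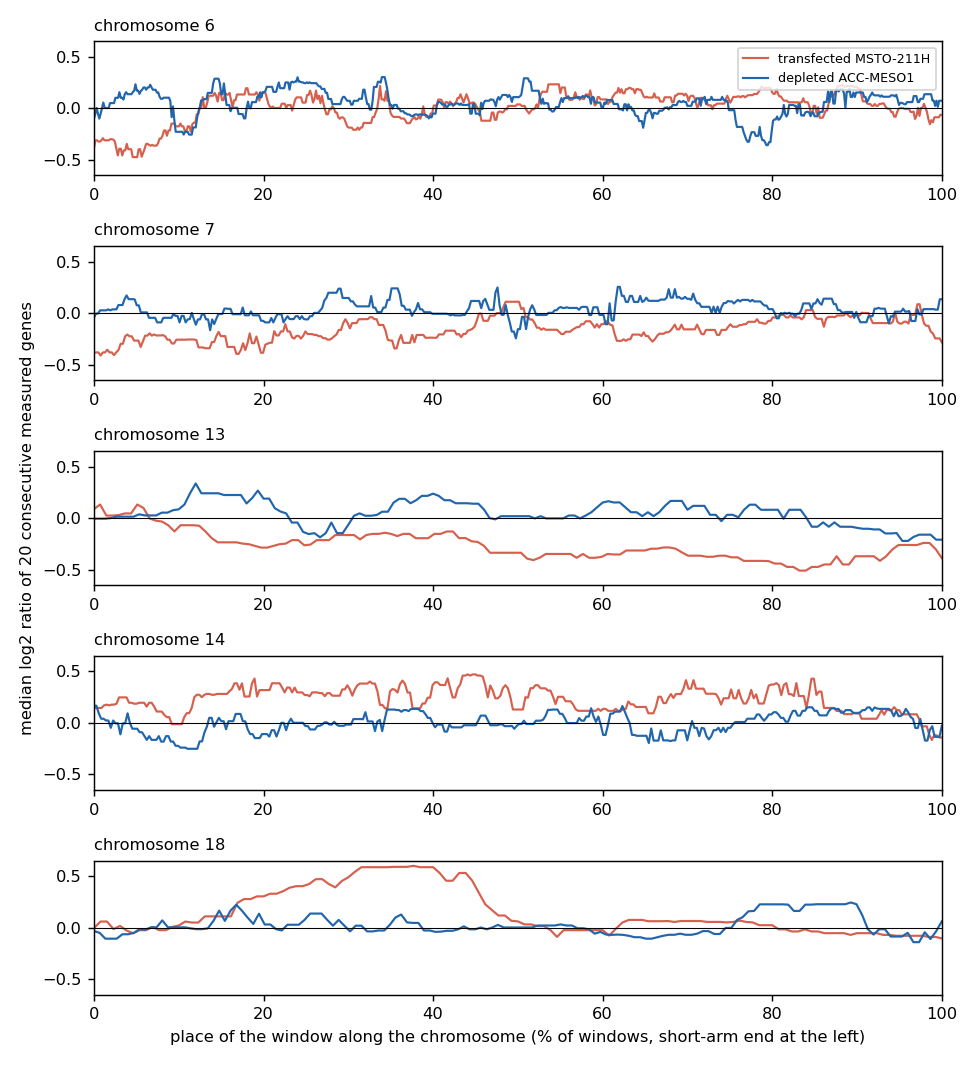
Median log2 ratio of 20 consecutive measured genes (y axis) against the place of the window along chromosomes 6, 7, 13, 14 and 18 (x axis, percent of windows from the short-arm end) for transfected MSTO-211H (orange) and depleted ACC-MESO1 cells (blue). The transfection line stays below 0 over most of chromosome 13, starts low on chromosome 6, and peaks at 0.60 on chromosome 18.

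Over all 8814 windows of 20 consecutive genes 4.49% had a median at least 0.3 in size, against 0.685% of 9786 on the depletion array. The highest window ran from TAF4B to ELP2 on chromosome 18, at 0.60 with 18 of 20 genes above 0. TAF4B, a subunit of the basal transcription machinery, was at 1.69, ASXL3, a Polycomb-related gene, at 1.83 and DSG1 at 1.61. The depletion median of its genes was 0.05. The window from MED7 to KCNMB1 on chromosome 5 was also at 0.60, with 6 genes at least 2-fold higher. Among them were TENM2 (2.08), the transcription factor EBF1 (1.75), ADAM19 (1.57) and the bile acid carrier FABP6 (1.57). EBF1 and GABRB2 (1.29), another of the 6, had no value on the depletion array. The 4 next windows were on chromosome 14. That from DLGAP5 to SIX6 was at 0.47 with 19 of 20 genes above 0. Its genes past 2-fold were the Wnt regulator DACT1 (1.73), CCDC198 (1.58), the reticulon RTN1 (1.14) and TMEM260 (1.07). Of these, DACT1, CCDC198 and RTN1 had no value on the depletion array. Among all genes without such a value, 28.5% were at least 2-fold higher. The window from TGFB3 to DIO2, at 0.42, held the ion channel relative TMEM63C (2.36), GPATCH2L (1.14) and VASH1 (1.04).

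The lowest window ran from SOX21 to TPP2 on chromosome 13, at -0.51 with 18 of 20 genes below 0 and none past 2-fold, so many small values of one sign made up this offset. Its lower and upper quartiles were -0.60 and -0.35. The window from BMP6 to DTNBP1 on chromosome 6 was at -0.47, with CD83, a surface protein of dendritic cells, at -1.20. The window from CYP2W1 to EIF2AK1 on chromosome 7 was at -0.41 and held values to both sides, with GNA12, a G protein subunit, at -1.22 and the small Maf gene MAFK at 1.43. A window on chromosome 13 from ESD to SUGT1 was at -0.41, with ARL11 at -1.60 and RCBTB2 at 1.06. On chromosome 19 the window from B3GNT8 to PSG4 was at -0.40. It ended in 5 pregnancy-specific glycoprotein genes, close paralogs of which PSG8 was at -1.06, and held LIPE. The depletion medians of these 5 windows lay between -0.08 and 0.15.

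Marker lists of mesothelial and other cells gave these values. Of 18 mesothelial markers 13 had a value and 8 were above 0, with a median of 0.06, but MSLN, mesothelin, was at -1.31 and KRT18 at -1.16. Fibroblast markers had a median of -0.38 with 3 of 9 above 0 and endothelial markers -0.40 with 1 of 6, and none of either was past 2-fold. The medians of the 6 lymphocyte, 5 myeloid, 7 epithelial, 5 muscle, 6 neural and 6 erythroid and platelet markers were 0.09, -0.17, -0.16, -0.01, -0.04 and -0.34. Single members past 2-fold were CD3E (1.88), TNNT2 (-1.63), GYPC (-1.70) and EPB42 (1.01).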

How the data were processed

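Total RNA of cultured mesothelioma lines was measured on 2 arrays of 2 colours. TRIZOL extraction and amplification with an amino allyl kit preceded dye coupling, per the labels' protocols. Per the labels, the authors deposited log2 ratios, already normalized, of manipulated cells over their control. No source used here gives the scanner, background correction, normalization method or rule for missing values. Of 24267 probes, 17737 had a value on the transfection array, and 9905 of these had a gene symbol. Symbols were updated through RefSeq GRCh38.p14 (10076 current, 2285 updated, 113 with several candidates kept as listed). The probes of a gene were averaged with pandas in Python 3. With 1 array per group no test was made, and precision is limited by the number of arrays. A list is described by its counts and median, with a 95% order-statistic interval over its genes. Genes were ordered by RefSeq position, leaving out genes placed on alternate loci, and windows held 20 genes. Promoter sequences are the first entry per gene in RefSeq GRCh38.p14. The genes and lists were chosen with earlier results of these data known. The text names DPP4, its measured neighbours, partners and substrates, and genes among the 30 highest and 30 lowest without placeholder symbols, not necessarily all. It also names members past 2-fold (4 where more) or the extremes of the lists, families and windows described. Genes whose probes all passed a limit, and the largest values on the transfection array alone, were named too. Alternatives were other centrings, probe rules, thresholds, scaling, genes on both arrays or with 1 probe, and windows of 10 and 40 genes.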

Additional observations from a re-analysis of the deposited data

Results flagged for a closer look

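Probes with no gene symbol in the annotation lay outside the comparisons of named genes. Of 7832 such probes with a value on the transfection array, 326 lay past 2-fold on the higher side (4.16%) and 107 on the lower (1.37%). These shares were close to the 4.09% and 1.37% of named genes. Their log2 ratios ran from -5.00 to 3.14. The lowest of them was thus further from 0 than the lowest named gene, PTGES at -2.63, and its gene is not named here.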

How the results depend on the processing

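The count of genes at least 2-fold higher was 383 and that of genes at least 2-fold lower 128. Centring on ribosomal protein genes gave 630 and 59. A threshold of 0.5 gave 1224 and 880, and one of 1.5 gave 141 and 22. Centring each chromosome on its own median, 3 other probe rules, genes on both arrays or with 1 probe, and scaling to the spread of the depletion array kept both counts within 1.5 times, at 268 to 414 and 108 to 137. The medians of 166 lists, families and windows, relative to that of all genes for lists and families, stayed inside their own interval over genes in 652 of 652 recomputations. These intervals are wide, and the genes measured on both arrays moved some medians: aldo-keto reductases from -0.48 to 0.00, matrix metalloproteinases from 0.29 to -0.06, collagens from 0.05 to -0.24 and NRF2 targets from -0.45 to -0.27. For the ribosomal centring staying inside follows from its construction, since it moves every gene alike. With windows of 10 genes the lowest and highest medians were -0.66 and 0.92, and with 40 genes -0.44 and 0.46. The share of windows at least 0.3 in size was 8.39% and 3.21%, against 4.96% and 0.0214% on the depletion array. No paired analysis was possible because each group had 1 array. Without channel intensities a dim probe could not be told from a bright one.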

Other observations

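Complement and coagulation genes held 33 measured members with a median of -0.02. Of these, 5 were at least 2-fold higher (15.2%, against 4.09% of all genes) and 1 lower (3.03%, against 1.37%). The higher ones were F13B, a subunit of factor XIII (1.67), the protein C receptor PROCR (1.54), the protease-activated receptors F2RL1 (1.54) and F2R (1.03), and the thrombin inhibitor SERPINC1 (1.16). The complement protease C1S was the lower one at -1.56. In depleted ACC-MESO1 cells F2RL1 was at -0.63 and PROCR at 0.53.

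Of 15 measured genes recurrently altered in mesothelioma, PTCH1 (1.04) was the member past 2-fold, and the median was 0.01. Of 17 proposed biomarkers of the disease 6 were above 0, with a median of -0.24. EFEMP1, fibulin-3, was at 2.45, the water channel AQP1 at 1.04 and MSLN at -1.31. Other aquaporins past 2-fold were AQP11 (-1.40) and AQP3 (-1.02). Cytosolic ribosomal protein genes had a median of -0.22 with 11 of 39 above 0, led by RPLP0 and RPLP1 (-1.46 and -1.03), and a median of -0.31 on the depletion array.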
